A study of Mus musculus with 6 samples.

Results

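The genes described here build and steer the mitotic spindle and the kinetochore, the protein assembly that ties each chromosome to spindle microtubules. The list held 58 genes, picked by name from known mitotic roles with earlier results of these data known, so that their counts are no independent evidence. It was grouped into 9 roles and matched by symbol to a mouse array that carried probes for 19320 named genes. Probes were found for 55 of the 58, all 55 passed the detection limit used for testing, and 54 of the 55 probes lay above that limit on all 6 arrays (Prc1 on 5). Ccnb1, Foxm1 and Kif2c had no probe under their symbols and were not analysed here. Total RNA came from oligodendrocyte precursor cells, the dividing glial progenitors of the brain that later form myelin. They were isolated from forebrains of Jcl:ICR mouse embryos at E15.5 and kept in FGF2 and PDGF-AA, which are mitogens for these cells. One group was infected with a retrovirus that knocks down Chd7, a chromatin remodeller of the CHD family, and the other with a control retrovirus, and RNA was taken 3 days later. There were 3 samples a group, each on its own one-colour array. The sequence of the knockdown construct, the share of infected cells and whether the replicates were separate cultures are not given in the sources used here, and the p-values cover the variation among these 6 samples alone, which could be purely technical.

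At the start of mitosis the kinase Cdk1, bound to its cyclins, drives chromosome condensation and the breakdown of the nuclear envelope. Kinetochores assembled on centromeric chromatin then capture microtubules, and a checkpoint delays chromosome separation until every kinetochore is attached. Many genes of this process are transcribed late in the cell cycle from promoters that carry 2 short elements. The first, the cell cycle genes homology region (CHR, TTTGAA or its variant TTCGAA), binds the MuvB complex, and the second, the CCAAT box, binds NF-Y.

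The letters of these elements were searched on both strands in RefSeq promoter windows (GRCm38.p6, 250 bases before to 50 after each gene's start), which were given for 48 of the 58 genes. At least 1 CHR element, in either spelling, stood in 35 of the 48 windows (72.9%), against 21.7% of the windows of all 27025 genes with an entry. CCAAT stood in 35 of the 48 (72.9%), against 41.1% of all genes, and both elements stood in 30 (62.5%), against 8.61%. The nearest TTTGAA began within 50 bases of the start in 30 of the 33 mitotic genes that held it (90.9%), against 28.3% of all genes that held it. A match shows that the letters are present in the window and not that a protein binds there. The 4 sites below are printed because they come from the genes with the smallest p among those that fell with Chd7 knockdown and held CHR letters. Each is 30 bases of GRCm38.p6 read 5′ to 3′ on the strand on which the element, in capitals, reads TTTGAA. For Cenpa this is the strand of the gene, and for the other three it is the opposite strand.
Cenpa (chr5:30666888-30666917, plus strand): ggggcgggtgatttTTTGAActgctggcga
Ndc80 (chr17:71526809-71526838, plus strand): tcaacccaaggcggTTTGAAttttaaagtt
Smc2 (chr4:52439237-52439266, minus strand): gccggaactgttccTTTGAAtttcggcgcg
Top2a (chr11:99024193-99024222, plus strand): cttccctagtttcaTTTGAAcctttatcta

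The 250 bases upstream of Top2a and of Cenpa are shown to contrast a promoter with many of these elements and one with few of them. Both are printed on the gene's own strand and end at the base before the start, and capitals mark CHR and CCAAT letters, which read TTCAAA and ATTGG where they lie on the opposite strand. Top2a held 6 CCAAT, 2 TTTGAA and 2 TTCGAA in this stretch, and Cenpa held 2 CCAAT and no CHR letters, since its only TTTGAA lies after the start.
Top2a (chr11:99024190-99024439, minus strand): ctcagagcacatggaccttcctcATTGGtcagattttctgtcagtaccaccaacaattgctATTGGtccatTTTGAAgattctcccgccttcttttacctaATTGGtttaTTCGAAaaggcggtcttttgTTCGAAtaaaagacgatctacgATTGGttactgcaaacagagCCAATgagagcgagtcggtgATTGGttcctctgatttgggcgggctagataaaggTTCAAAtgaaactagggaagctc
Cenpa (chr5:30666636-30666885, plus strand): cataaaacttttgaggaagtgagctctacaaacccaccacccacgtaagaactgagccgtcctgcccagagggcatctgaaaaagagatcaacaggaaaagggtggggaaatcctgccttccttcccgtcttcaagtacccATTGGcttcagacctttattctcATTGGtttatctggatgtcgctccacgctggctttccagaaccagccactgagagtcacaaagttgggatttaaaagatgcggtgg

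On the arrays, 18 of the 55 mitotic genes were lower in the knockdown samples, and most of the others had small negative values that did not pass. Levels below are log2 intensities after background correction with an offset of 50 and quantile normalization, and each log2 change is knockdown minus control with its standard error (SE), from limma. The p-values are adjusted by Benjamini-Hochberg over all 17390 genes tested, with 0.05 as the threshold. Of the 55 mitotic genes, 18 fell, none rose and 37 did not pass. At an unadjusted p below 0.05, 38 were lower and 0 higher. Among all genes tested, 5.16% fell and 4.49% rose, and 12.7% were lower and 11.9% higher at an unadjusted p below 0.05. With the replicate number as a block 24 of the 55 passed, all lower, against 7.45% of all genes lower, and the count over all genes was 2580 in place of 1678. The values of 52 of the 55 genes were negative, with a median log2 change of -0.20 (quartiles -0.34 and -0.13), against a median of 0.000771 (quartiles -0.05 and 0.05) over all genes tested. In 39 of the 55 genes (70.9%) every knockdown sample lay below every control sample, against 15.4% of all genes tested, and in none did every knockdown sample lie above. The changes were small on this scale. The median mitotic gene stood at 86.8% of its control level, the 18 that fell stood at a median of 77.7%, and 15 of the 18 changed by less than 1.5-fold. The added offset makes folds smaller, most in dim genes, and this holds for the percents of control here and below. On the authors' processed values, which have no offset, the median log2 change of the 55 genes was -0.33. In RNA from whole cultures, fewer dividing cells and less RNA per dividing cell cannot be told apart.

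**Figure D1:**
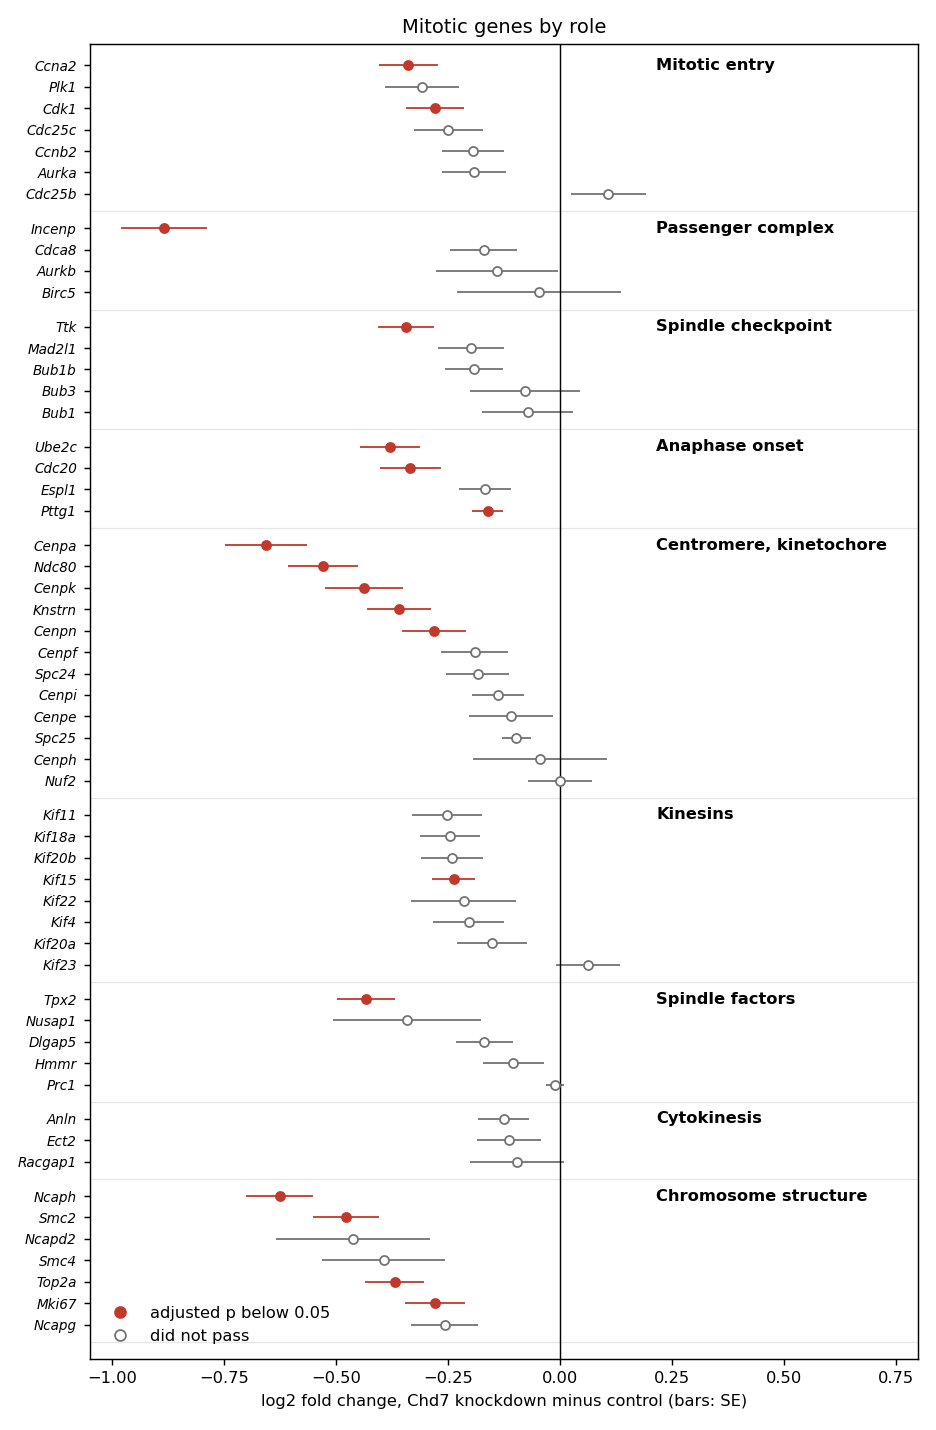
Log2 fold change (knockdown minus control, horizontal axis) of the 55 mitotic genes, grouped by role and ordered by size, with SE as bars. Filled red points mark the 18 genes with adjusted p below 0.05, all of which lie left of 0, and 52 of the 55 points are negative.

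Chd7 itself averaged 8.49 ± 0.05 in knockdown samples and 9.37 ± 0.15 in control samples (SD, n = 3 each), which is 54.3% of the control level (log2 change -0.88, SE 0.0855, adjusted p = 0.00112). A second Chd7 probe stood at 71.5% of control (-0.48, adjusted p = 0.00411 over all probes). Per array, the median raw signal was 83.4 to 89.4, blank spots averaged 58.9 to 61.9, and 87.0% to 89.8% of probes exceeded the detection limit. The arrays fall into 2 sets by the slope with which the scanner joined its gains. The low set held knockdown replicate 2 and control replicates 1 and 2, and the high set held knockdown replicates 1 and 3 and control replicate 3. Within the low set the median change of the mitotic genes was -0.21 with 50 of 55 negative, and within the high set it was -0.23 with 49 of 55 negative. Each set holds 1 group as a single sample, so no calls are read from it. With the set as a block over all 6 arrays 15 mitotic genes passed, all lower, against 3.58% of all genes.

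The genes that trigger entry into mitosis were tested for 7 of 9 members, of which 2 fell, and 6 of the 7 separated the groups. Such counts, here and in the roles below, stand beside 5.16% of all genes that fell and 15.4% with every knockdown sample below every control sample. Cdk1, the central mitotic kinase, had 11.69, 11.70 and 11.76 in knockdown samples, against 12.02, 12.01 and 11.96 in control samples (log2 change -0.28, SE 0.0642, adjusted p = 0.0282). Its partner cyclin A2, Ccna2, had 10.53, 10.48 and 10.51 in knockdown samples, against 10.83, 10.84 and 10.88 in control samples (-0.34, SE 0.0654, adjusted p = 0.0144). Neither gene's groups overlapped. Plk1, a kinase needed for spindle assembly, had 8.16, 8.40 and 8.41 in knockdown samples, against 8.56, 8.66 and 8.69 in control samples. At a log2 change of -0.31 it fell just short of the threshold (adjusted p = 0.050017). Its adjusted p was 0.0123 in the fit with the replicate block and 0.098 with the gain-slope set as a block. Ccnb2 (-0.19), the phosphatase gene Cdc25c (-0.25) and the spindle-pole kinase gene Aurka (-0.19) were not overlapping either but did not pass. Cdc25c passed with the replicate block (adjusted p = 0.0272) but not with the gain-slope set as a block (0.0962). It passed without control replicate 1 (0.0285) but in none of the other fits that leave out 1 array (up to 0.218). Cdc25b, a phosphatase that activates Cdk1, was the member with the most positive value, 8.40, 8.52 and 8.55 in knockdown samples against 8.42, 8.50 and 8.23 in control samples (0.11, adjusted p = 0.484), and its groups overlapped. The call of Cdk1 held in 1 of the 6 fits that leave out 1 array, the one without control replicate 1 (adjusted p up to 0.101 in the others), and the call of Ccna2 was lost without knockdown replicate 2 (0.0636).

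The chromosomal passenger complex carries the kinase Aurora B to centromeres and later to the spindle midzone. Its scaffold gene Incenp had the largest change of all 55 members, with 7.26, 6.93 and 7.13 in knockdown samples against 8.09, 7.83 and 8.04 in control samples. This is 54.2% of the control level (log2 change -0.88, SE 0.0965, adjusted p = 0.00157), and on the authors' processed values, without the offset, it is 40.9%. The highest knockdown sample lay 0.58 below the lowest control sample, and the gene passed in all 6 fits that leave out 1 array. The other three subunits did not pass. The log2 change was -0.14 for Aurkb, the kinase (adjusted p = 0.58), -0.17 for the borealin gene Cdca8 (0.2) and -0.05 for the survivin gene Birc5 (SE 0.183, adjusted p = 0.913). Birc5 had 10.83, 11.01 and 11.08 in knockdown samples, against 10.53, 11.24 and 11.29 in control samples. Its control replicate 1 lay below all other samples, and without it the log2 change was -0.29 (adjusted p = 0.0898). Over the 6 fits that leave out 1 array the change of Birc5 ran from -0.29 to 0.09, and it passed in none.

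Of 5 spindle checkpoint genes, 1 fell and all 5 values were negative. Ttk, the kinase known as Mps1 that starts checkpoint signalling at unattached kinetochores, had 8.32, 8.24 and 8.30 in knockdown samples, against 8.58, 8.62 and 8.69 in control samples (-0.34, SE 0.0628, adjusted p = 0.0112). Its groups were apart, and the call was lost without knockdown replicate 2 (adjusted p = 0.0542). Mad2l1 (-0.20) and the BubR1 gene Bub1b (-0.19), whose proteins form part of the complex that restrains Cdc20, did not pass (adjusted p = 0.133 and 0.0999). Bub3, which binds kinetochores with the Bub kinases, had 11.02, 11.15 and 11.18 in knockdown samples, against 10.89, 11.33 and 11.36 in control samples (-0.08, adjusted p = 0.755). As with Birc5, control replicate 1 was the lowest of the 6 samples, and without it the log2 change was -0.23 (adjusted p = 0.122). Over the 6 fits that leave out 1 array the change of Bub3 ran from -0.23 to 0.006, and it passed in none.

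The 4 genes of anaphase onset separated the groups completely, and 3 of the 4 fell, against 15.4% and 5.16% of all genes tested. Ube2c, the ubiquitin-conjugating enzyme of the anaphase-promoting complex (APC/C), had 10.75, 10.80 and 10.85 in knockdown samples, against 11.14, 11.20 and 11.20 in control samples (-0.38, SE 0.0672, adjusted p = 0.00992). Cdc20, which activates that complex, had 11.34, 11.42 and 11.36 in knockdown samples, against 11.68, 11.67 and 11.77 in control samples (-0.33, SE 0.0676, adjusted p = 0.0172). The securin gene Pttg1, whose protein holds separase inactive until anaphase, had 6.22, 6.25 and 6.24 in knockdown samples, against 6.37, 6.37 and 6.45 in control samples (-0.16, SE 0.0349, adjusted p = 0.0223). Pttg1 is dim, so that the added offset makes its fold smaller, and on the authors' processed values its change was -0.47. The separase gene Espl1, at -0.17, did not pass (adjusted p = 0.114). Ube2c held in all 6 fits that leave out 1 array. Cdc20 was lost without knockdown replicates 1 or 3 or control replicates 2 or 3 (adjusted p up to 0.0669), and Pttg1 without any 1 knockdown replicate or control replicate 3 (up to 0.091).

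Centromere and kinetochore genes formed the largest role, with 5 of 12 lower, 11 of 12 negative and 9 of 12 not overlapping. Over all genes tested these shares were 5.16%, 49.4% and, for groups apart with the knockdown lower, 15.4%. Cenpa, the histone H3 variant that marks centromeres, was among the brightest members, with 11.04, 11.28 and 11.29 in knockdown samples against 11.83, 11.78 and 11.97 in control samples. It stood at 63.5% of control (-0.66, SE 0.091, adjusted p = 0.00386), with a gap between the groups wider than the range within either. Ndc80, the subunit that binds microtubules at the outer kinetochore, had 8.61, 8.40 and 8.55 in knockdown samples, against 9.01, 9.13 and 9.01 in control samples (-0.53, SE 0.0784, adjusted p = 0.00482). Its partners in the same complex did not pass. Nuf2 had 9.34, 9.42 and 9.40 in knockdown samples, against 9.41, 9.47 and 9.30 in control samples (0.000306, adjusted p = 0.999), with overlapping groups. Spc24 had a log2 change of -0.18 and Spc25 of -0.10, and the groups of both were apart. Spc25 is dim, so that the added offset makes its fold smaller. On the authors' processed values the changes were -0.64 for Ndc80, -0.05 for Nuf2, -0.24 for Spc24 and -0.38 for Spc25. The difference between Ndc80 and its partners was not tested. Cenpk and Cenpn, subunits of the inner kinetochore network, both fell. Cenpk had 8.69, 8.71 and 8.47 in knockdown samples, against 9.09, 9.13 and 8.95 in control samples (-0.44, SE 0.0868, adjusted p = 0.0161). Cenpn, which reads Cenpa nucleosomes, had 8.38, 8.55 and 8.53 in knockdown samples, against 8.72, 8.81 and 8.78 in control samples (-0.28, SE 0.0707, adjusted p = 0.0393). Knstrn, the kinastrin gene, whose protein joins kinetochores and spindle, had 9.10, 9.18 and 9.21 in knockdown samples, against 9.45, 9.52 and 9.60 in control samples (-0.36, SE 0.0713, adjusted p = 0.0159). All 5 of these genes separated the groups. Cenpe, a kinetochore motor (-0.11), the outer kinetochore gene Cenpf (-0.19), and Cenpi (-0.14) and Cenph (-0.04, SE 0.149), both of the inner network, did not pass. Cenpa and Ndc80 held in all 6 fits that leave out 1 array. Cenpk was lost without knockdown replicate 3 or control replicate 2 (adjusted p up to 0.0613), Knstrn without knockdown replicates 1 or 2 or control replicates 2 or 3 (up to 0.0646), and Cenpn without any 1 array other than control replicate 1 (up to 0.129).

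**Figure D2:**
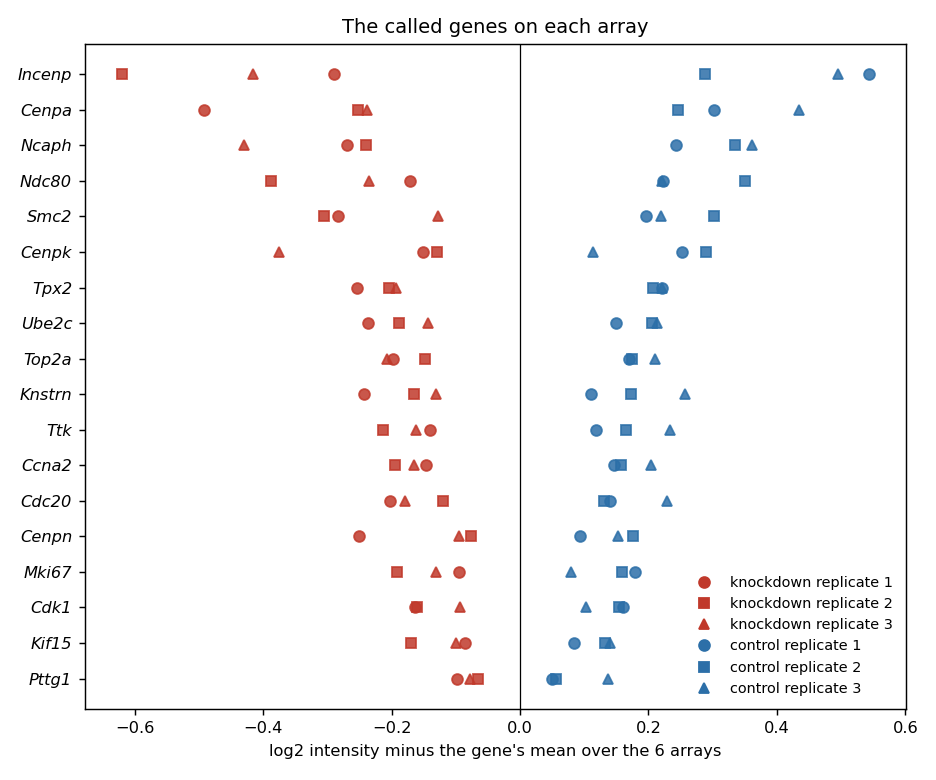
Log2 intensity of the 18 genes that fell, as the difference from each gene's own mean over the 6 arrays (horizontal axis), with knockdown replicates in red and control replicates in blue. The groups are apart for all 18 genes, which were chosen for passing the test, and the widest separations are those of Incenp, Cenpa and Ncaph.

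Kinesins, the motors that slide, cap and shorten spindle microtubules, were tested for 8 of 9 members. Of these 1 fell and 7 of the 8 values were negative, with a median of -0.23. Kif15, which can keep spindle poles apart alongside Kif11, had 6.84, 6.76 and 6.83 in knockdown samples, against 7.01, 7.06 and 7.07 in control samples (-0.24, SE 0.0481, adjusted p = 0.0172), and was lost without knockdown replicates 2 or 3 or control replicate 2 (up to 0.0782). Kif11 (-0.25) pushes the poles apart, Kif18a (-0.25) limits the length of kinetochore microtubules, and Kif20b (-0.24) acts in cytokinesis. Their changes were of similar size on this scale, which includes the offset, but did not pass (adjusted p = 0.0764, 0.0534 and 0.0626). With the replicate block these 3 passed (adjusted p = 0.0307, 0.0444 and 0.0363), but with the gain-slope set as a block they did not (0.0538, 0.109 and 0.0619). Kif20b passed without control replicate 1 (0.0236) but in none of the other fits that leave out 1 array (up to 0.163). On the authors' processed values, without the offset, the change was -0.44 for Kif15, -0.34 for Kif11, -0.33 for Kif18a and -0.36 for Kif20b. The chromosome-bound motors Kif22 (-0.21) and Kif4 (-0.20) and the midzone motor Kif20a (-0.15) did not pass either. Kif23, the kinesin of the central spindle, had a positive value, as Cdc25b did, with 7.62, 7.61 and 7.59 in knockdown samples against 7.49, 7.45 and 7.69 in control samples (0.06, adjusted p = 0.65), and its groups overlapped.

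Among 5 spindle assembly factors, 1 fell. Tpx2, which activates Aurora A and nucleates microtubules near chromosomes, had 9.62, 9.67 and 9.68 in knockdown samples, against 10.10, 10.08 and 10.10 in control samples. The 3 control samples were nearly equal, and the knockdown samples stood at 74.1% of them (-0.43, SE 0.0644, adjusted p = 0.0049), a call that held in all 6 fits that leave out 1 array. Nusap1, which bundles microtubules, had 9.73, 9.93 and 9.86 in knockdown samples, against 9.74, 10.34 and 10.46 in control samples (-0.34, SE 0.165, adjusted p = 0.245). Here control replicate 1 lay among the knockdown samples, and without it the log2 change was -0.56 and passed (adjusted p = 0.00874). Nusap1 passed in none of the other fits that leave out 1 array (up to 0.513). Dlgap5 (-0.17), which stabilises kinetochore fibres, and the spindle-pole gene Hmmr (-0.10) did not pass. Prc1, which bundles midzone microtubules, had 5.75, 5.79 and 5.81 in knockdown samples and 5.78, 5.78 and 5.82 in control samples, close to the detection limit. None of the 3 cytokinesis genes passed in limma, and 0 of the 3 had an unadjusted p below 0.05. Anln, the contractile ring protein anillin, had the smallest p of these, with 7.86, 7.87 and 7.92 in knockdown samples against 7.999, 7.97 and 8.06 in control samples (-0.13, SE 0.0572, adjusted p = 0.217). Its groups did not overlap. Ect2 (-0.11), needed to form the cleavage furrow, and Racgap1 (-0.10), its partner at the midzone, did not pass.

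The genes that shape mitotic chromosomes had the most negative median of the 9 roles, at -0.39, with 4 of 7 lower and all 7 negative. Condensin I folds chromatin into compact rods and is built from a pair of SMC proteins and 3 further subunits. Its kleisin gene Ncaph had 8.62, 8.65 and 8.46 in knockdown samples, against 9.13, 9.22 and 9.25 in control samples, and stood at 64.8% of control (-0.63, SE 0.0753, adjusted p = 0.00211). The SMC gene Smc2 had 8.67, 8.65 and 8.83 in knockdown samples, against 9.15, 9.26 and 9.18 in control samples (-0.48, SE 0.0736, adjusted p = 0.0055). Its second probe fell too, with 8.40, 8.41 and 8.55 in knockdown samples against 8.84, 8.86 and 8.71 in control samples (-0.35, adjusted p = 0.0221 over all probes). Both probes separated the groups. The other three condensin genes were negative but did not pass. Smc4 had 10.70, 10.95 and 11.001 in knockdown samples, against 11.50, 11.36 and 10.97 in control samples (-0.39, SE 0.138, adjusted p = 0.114). Ncapd2 had 8.79, 9.34 and 9.29 in knockdown samples, against 9.77, 9.77 and 9.27 in control samples (-0.46, SE 0.172, adjusted p = 0.135). In both, control replicate 3 lay among the knockdown samples. Without it Smc4 passed at -0.55 (adjusted p = 0.0267), and Ncapd2 had -0.62 (0.0579). In the other fits that leave out 1 array neither passed (up to 0.305 for Smc4 and 0.34 for Ncapd2). The log2 change of Ncapg was -0.26 on its brighter probe (adjusted p = 0.0639) and -0.21 on the other. On the brighter probe the adjusted p was 0.0325 with the replicate block and 0.0711 with the gain-slope set as a block. That probe passed without control replicate 1 (0.0293) but in none of the other fits that leave out 1 array (up to 0.187). Top2a, the topoisomerase that untangles sister DNA, had 10.34, 10.39 and 10.33 in knockdown samples, against 10.71, 10.71 and 10.75 in control samples (-0.37, SE 0.0654, adjusted p = 0.00988). Mki67, which coats mitotic chromosomes and is widely used as a marker of dividing cells, had 8.99, 8.89 and 8.95 in knockdown samples, against 9.26, 9.24 and 9.16 in control samples (-0.28, SE 0.0665, adjusted p = 0.0322). Both separated the groups. Ncaph, Smc2 and Top2a held in all 6 fits that leave out 1 array, while Mki67 passed in none of them (adjusted p up to 0.124).

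Across the 18 genes that fell, 8 passed in all 6 fits that leave out 1 array: Incenp, Cenpa, Ncaph, Ndc80, Tpx2, Smc2, Ube2c and Top2a. With median scaling in place of quantile normalization 10 passed, against 4.07% of all genes lower. The 8 that did not were Cdk1, Ccna2, Cdc20, Ube2c, Cenpn, Knstrn, Top2a and Mki67 (adjusted p between 0.0566 for Knstrn and 0.239 for Cdk1). On the authors' own processed values 17 passed (3.94% of all genes lower), 16 of them among the 18, with Kif18a added and Cdk1 (adjusted p = 0.0509) and Cdc20 (0.0516) lost. The changes were larger on that scale, which has no offset: Incenp changed by -1.29, Ncaph by -0.75, Cenpa by -0.67 and Ndc80 by -0.64, and the median of the 55 genes was -0.33. Over all genes, the share of higher genes among those that passed was 32.0% with the authors' values, against 46.5% with quantile normalization.

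**Figure D3:**
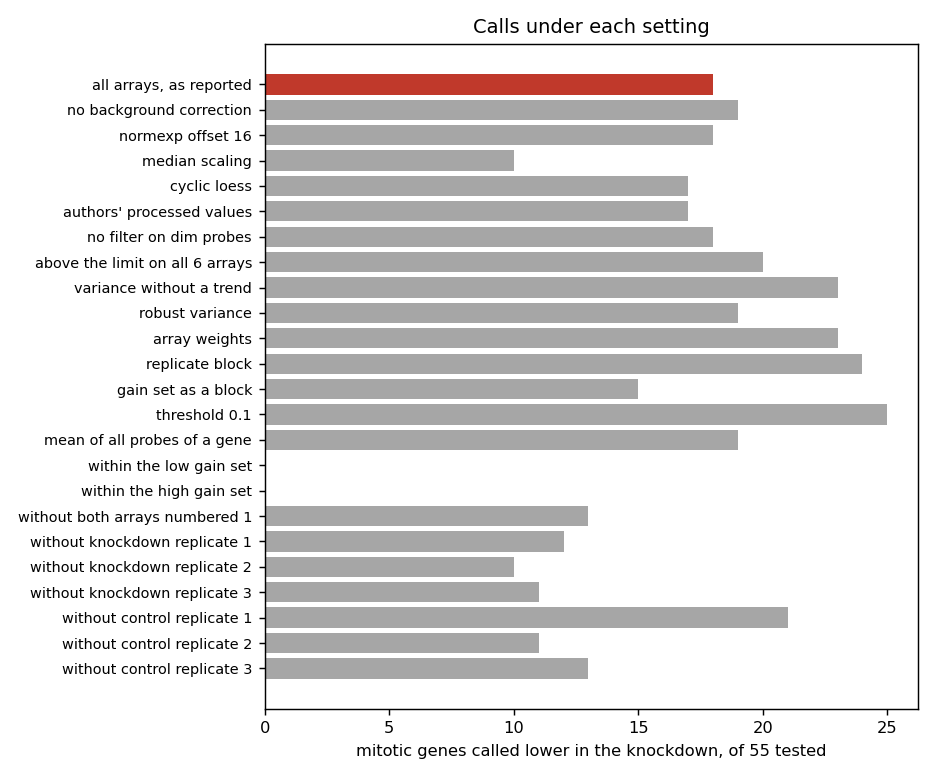
Number of the 55 mitotic genes lower in the knockdown at the threshold (horizontal axis, from 0) under each processing choice, with the reported fit in red. The reported count is 18, and the fits that leave out 1 array give 10 to 21. The sets of 3 arrays with similar gain slopes each hold 1 group as a single sample, so no count is read from them.

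The samples were not equal within the groups. Averaged over the 55 genes, the deviation from each gene's own mean was -0.15, -0.12 and -0.09 in knockdown replicates 1, 2 and 3, against 0.09, 0.15 and 0.12 in control replicates 1, 2 and 3. The median deviation over all genes tested was between -0.00205 and 0.00393 on each array. The lowest of the 6 values was in a knockdown sample for 48 of the 55 genes (23, 20 and 5 in replicates 1, 2 and 3). The highest was in a control sample for 54 genes (11, 12 and 31). Between brightness and log2 change, Spearman's rank correlation was -0.24 over the 55 genes, which share the 6 arrays, and is given as a description. The added offset makes the folds of dim genes smaller, and its part in this correlation was not tested. The median SE was 0.0716 for the mitotic genes, against 0.0485 over all genes.

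**Figure D4:**
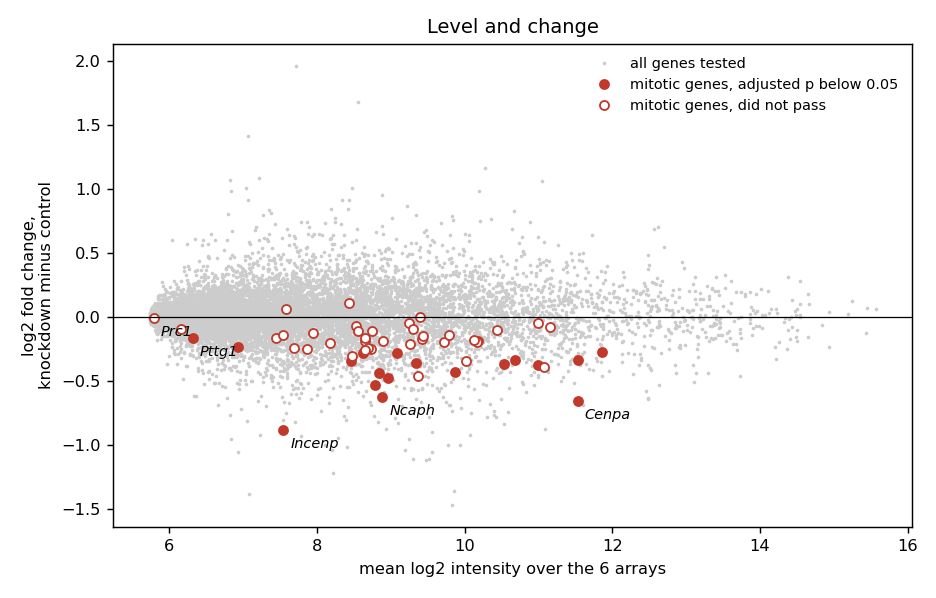
Log2 fold change (knockdown minus control, vertical axis) against the mean log2 intensity over the 6 arrays for all 17390 genes tested (grey) and the 55 mitotic genes (red, filled where adjusted p is below 0.05). The mitotic genes span the range from the dim Prc1 to the bright Cdk1, and most lie below 0 without being the most changed genes of the array.

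The promoter elements were counted in the genes that fell and in those that did not pass, with no test of the difference. CHR letters in either spelling stood in 11 of 15 genes that fell and had a window (73.3%), against 23 of 31 that did not pass (74.2%), and CCAAT in 10 (66.7%) against 24 (77.4%). TTTGAA alone stood in 73.3% against 67.7%, and at least 2 CCAAT in 53.3% against 38.7%. The median log2 change was -0.21 over the 34 tested genes with CHR letters and -0.18 over the 12 without. The 18 genes lie on 12 chromosomes, and the 55 on 18.

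Other genes of mitosis and of DNA replication, none of them among the 58, were read from lists by role. The share that fell was 37.5% of the further spindle and cytokinesis genes, 10.7% of the further kinetochore genes and 27.8% of the further entry genes. Over all genes tested 5.16% fell and 4.49% rose. Of 24 further spindle and cytokinesis genes 9 fell, none rose and the median change was -0.23. The smallest p were those of Sapcd2 (-0.56, adjusted p = 0.00438), which helps set spindle orientation, the spindle pole gene Numa1 (-0.32, 0.00874) and the midbody gene Shcbp1 (-0.34, 0.0141). Of 28 further kinetochore genes 3 fell, none rose and the median was -0.12. These were Cenpq (-0.53, adjusted p = 0.00491), of the same inner network as Cenpk, Spdl1 (-0.21, 0.0303), which recruits dynein, and Cenpm (-0.28, 0.0314). Of 18 further genes of mitotic entry and its transcription 5 fell, none rose and the median was -0.13, with the kinase gene Melk (-0.33, adjusted p = 0.0205), Lin54 (-0.20, 0.0249) and Cks2 (-0.29, 0.0306), a small partner of Cdk1, first by p. Lin54 encodes the MuvB subunit that contacts CHR DNA, and its levels were 6.87, 6.83 and 6.85 in knockdown samples, against 7.06, 7.04 and 7.05 in control samples. These did not overlap. In the same list the MuvB gene Lin9 had a positive value (0.05, adjusted p = 0.587) with overlapping groups. Mybl2 did not pass (-0.13, adjusted p = 0.0693), though its groups were apart. At an unadjusted p below 0.05 no further spindle and cytokinesis or kinetochore gene was higher, and 1 entry gene was.

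Of 15 core APC/C genes 2 fell, Anapc11 (-0.32, adjusted p = 0.0164), the RING-finger subunit, and Anapc13 (-0.25, 0.0479), while Cdc27, a scaffold subunit, did not pass (-0.26, 0.094), and the median was -0.10. Of 16 cohesin and condensin II genes 3 fell and 1 rose, with a median of -0.05: Smc1a (-0.37, adjusted p = 0.0204) and Stag1 (-0.21, 0.0323), both of cohesin, had the smallest p of those that fell. The gene that rose was Ncaph2, the condensin II counterpart of Ncaph. It had 7.31, 7.39 and 7.42 in knockdown samples, against 6.94, 7.13 and 7.12 in control samples (0.31, SE 0.0671, adjusted p = 0.023), and its groups did not overlap. Of 25 S-phase genes 3 fell, none rose and the median was -0.10: Fen1 (-0.34, adjusted p = 0.0148), which trims lagging strands, and the replicative helicase genes Mcm7 (-0.38, 0.0152) and Mcm6 (-0.33, 0.0243). CHR letters stood in 56.5% of the windows of the further spindle and cytokinesis genes, 54.5% of the cohesin and condensin II genes, 53.8% of the further kinetochore genes, 46.2% of the further entry genes, 23.8% of the S-phase genes and 14.3% of the core APC/C genes. Over all genes with a promoter entry this share was 21.7%. The differences between the lists were not tested.

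**Figure D5:**
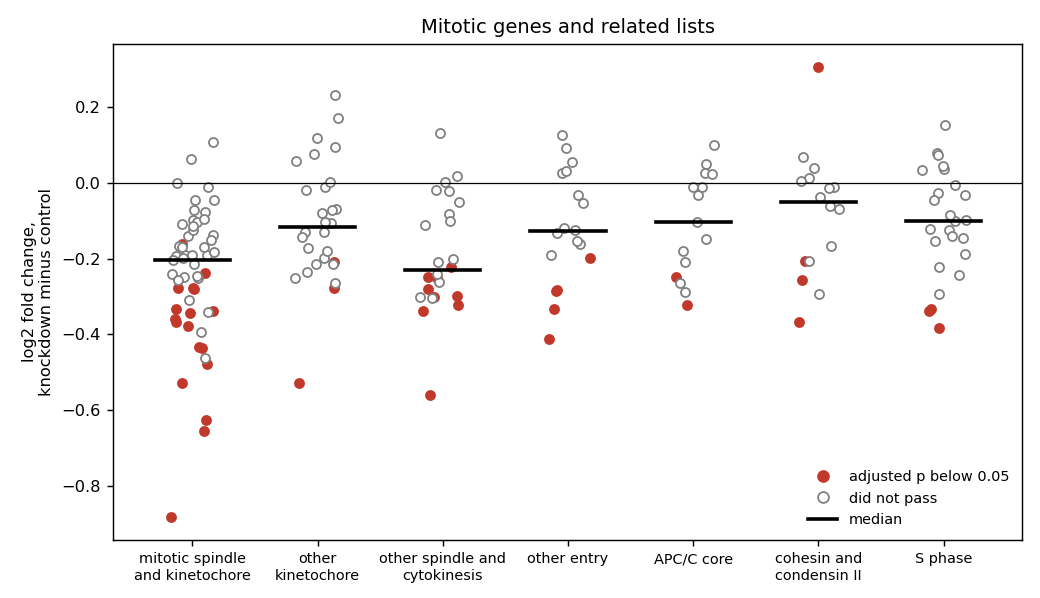
Log2 fold change (knockdown minus control, vertical axis) of each tested gene in the 55 mitotic genes and in 6 related lists, filled where adjusted p is below 0.05, with the median of each list as a bar. The medians run from -0.23 in further spindle and cytokinesis genes to -0.05 in cohesin and condensin II genes, and the only filled point above 0 is Ncaph2.

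Markers of the cells themselves also differed between the groups. The share that fell was 62.5% of the precursor markers and 33.3% of the neuronal markers, against 5.16% of all genes tested. All 8 oligodendrocyte precursor markers lay above the detection limit on all 6 arrays, and 5 of the 8 fell: the PDGF receptor gene Pdgfra (-1.36), Lhfpl3 (-0.96), Sox10 (-0.52), Cspg4 (-0.48) and Olig2 (-0.35). Their summed normalized intensity was 9845 to 11143 in knockdown samples, against 12776 to 15061 in control samples. Pdgfra, which receives the PDGF-AA of the medium, had 9.27, 9.04 and 9.23 in knockdown samples, against 10.65, 10.37 and 10.61 in control samples (adjusted p = 0.000422). Of 6 neuronal markers 2 fell, with summed intensity of 686 to 835 in knockdown samples against 893 to 1011 in control samples. Those that fell were Dcx (-0.71), the marker with the largest share of that difference, and Map2 (-0.12), and 3 of the 6 were positive. None of 6 astrocyte markers passed (unadjusted p below 0.05 for 1 lower and 1 higher), while their sum was 5322 to 5732 in knockdown samples against 4218 to 4910 in control samples. That sum is dominated by the bright Gja1 (0.44), 3 of the 6 were negative, among them Slc1a2 (-0.47), and the median was 0.02. None of 5 oligodendrocyte markers passed (1 higher at an unadjusted p below 0.05), with a sum of 1116 to 1524 in knockdown samples against 1167 to 1569 in control samples. None of 5 microglial or 4 endothelial and mural markers had an unadjusted p below 0.05, and of 5 fibroblast markers 1 was higher at that level and none passed. The microglial sum was 368 to 376 in knockdown samples against 360 to 373 in control samples, with Itgam below the limit. The endothelial and mural sum was 280.1 to 282.9 in knockdown samples against 276.7 to 286.0 in control samples, with Pecam1 and Cldn5 below the limit, and the fibroblast sum was 302 to 315 in knockdown samples against 302 to 306 in control samples. Most of the microglial, endothelial and mural, and fibroblast sums is the offset, so their similar values say little about those cells. The part of these marker differences in the levels of the mitotic genes was not tested.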

How the data were processed

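Total RNA was amplified as amino allyl RNA, coupled to Cy5 and hybridised to one-colour TORAY arrays, per the labels' protocols. Each array held 27456 spots, and the intensity deposited for a spot is its median pixel at 635 nm, joined from 3 scanner gains, per the file headers. The deposited local background followed the signal (correlation of logs 0.957 to 0.981) and was not subtracted. The authors' second table of intensity values is, from the values themselves, the spot signal less about the blank mean, scaled to a median of 25 (99.995% of residuals within 0.6). No source states this.

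In limma 3.58.1 (R 4.3.3, with statmod 1.5.0), normexp with an offset of 50 and no local background was followed by quantile normalization, and spots of a probe were averaged as log2 values. Figures were drawn with matplotlib 3.10.9. Of 23473 probes, 20689 had a symbol in the platform annotation, naming 19320 genes. The detection limit was the mean of blank spots plus 2 SD, which a probe had to exceed before correction on 3 or more of 6 arrays, and a gene was taken at its brightest probe, leaving 17390 genes. They were fitted with lmFit and eBayes (trend) on both groups without covariates. A check on simulated data came first, but its noise was drawn independently for each probe, so it does not cover differences shared between samples. Array number limits the precision of each value.

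Deviations from the group means correlated between same-numbered samples (0.36, 0.38 and 0.23 over 17390 genes, but -0.04, 0.16 and -0.14 over the mitotic genes), so the replicate numbers were treated as pairs in an alternative fit; this pairing is read from the data, and the labels do not state it. The members and lists were chosen with earlier results of these data known. Values on every array are given for members that passed, the member with the smallest p in a role without any, positive members and Bub3; named for other lists are the 3 smallest p and opposite calls. The array values of Plk1, Nusap1, Smc4, Ncapd2, Birc5, Prc1, Lin54 and Pdgfra were added after they were seen. Lin9 and Mybl2 were also named after their values were seen. Alternatives were the background, offset, normalization, filters, variance model, blocks, probe rule, threshold and leaving out each array.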

Additional observations from a re-analysis of the deposited data

How the results depend on the processing

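None of the 55 mitotic genes passed as higher under any alternative, and their median stayed negative. The count of 18 lower genes became 10 with median scaling. Within each set of 3 arrays with similar gain slopes it was 0, but 1 group there is a single sample, so no call is read. Counts were 10 to 21 in fits that leave out 1 array (10 without knockdown replicate 2, 11 without knockdown replicate 3 or control replicate 2). Those fits gave medians of -0.23 to -0.20, and the authors' values gave -0.33. The replicate block gave 24 lower mitotic genes. Over all genes the count of 1678 became 1233 with median scaling, 1009 with the authors' values and 2580 with the replicate block. It was 2688 at a threshold of 0.1, 801 without both arrays numbered 1, and 742 to 1459 in fits that leave out 1 array. Within the low-slope and high-slope sets it was 34 and 18, and there too no call is read. The log2 change of Chd7 was -0.88 in the low-slope and -0.96 in the high-slope set of 3 arrays, where no call is read. The causes of the differences between these fits were not tested.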
